A study of Mus musculus with 3 samples.

Results

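The genes described here encode the structural proteins of the extracellular matrix and the integrin receptors that bind it. They were chosen by a rule on names: a probe set (the group of array probes that reports on a gene) had to name 1 gene, and its symbol had to begin as that of a collagen, laminin, integrin, nidogen, SPARC or fibrillin gene, or to be Fn1, Hspg2, Agrn, Dcn, Lum, Bgn or Eln. This gave 97 genes, measured by 100 of the 21789 probe sets that name 1 gene, among 19938 named genes in all. The rule uses no measured value, but it was set with earlier results of these data known. RNA came from 3 replicates labelled as spermatids of 30-day-old male BALB/c mice, described in the labels as wild type, with no treatment, no second group and no control. Testis tubules had been cut, homogenised and strained to a suspension of single cells, and the labels describe no step that separates spermatids from the other cells of the tubule. The labels do not say that the replicates were separate animals, so errors below measure the spread between these samples, which may be technical. Each replicate was hybridised to an Affymetrix Mouse Gene 1.0 ST array, and values are levels on the log2 scale.

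A seminiferous tubule is wrapped in a basement membrane, a sheet of laminin and type IV collagen networks joined by nidogen and the heparan sulfate proteoglycan perlecan. Sertoli cells inside the tubule and contractile peritubular myoid cells outside it deposit this sheet together, and the myoid cells also lie in interstitial matrix with fibrillar collagen and fibronectin. Integrins are paired alpha and beta chains in the cell membrane that bind these proteins and connect them to the actin cytoskeleton. Spermatogonia sit on the basement membrane, while spermatids lie deeper in the epithelium and do not touch it.

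Of the 97 genes, 19 (19.6%) were called above background, against 36.6% of all named genes. A background of 7.98 was used, taken as the 95th percentile over 167 vomeronasal receptor and 44 hair keratin associated protein genes. A call is limma's one-sided moderated test of the mean against it, with Benjamini-Hochberg adjustment over all named genes at 0.05. The test takes the level as fixed, so its p-values leave out the uncertainty of the level itself. The median level of the 97 genes was 7.39, against 7.45 for all named genes, so the low count of calls came with a typical median. Only 6 members lay more than 1 above the background level: Sparc, Dcn, Sparcl1, Itga1, Itgb1 and Itgb1bp1. No member lay below 4.77, the median of the background genes. Probes of different genes bind with different strength, so a gene's level is set here against the background and not ranked against another gene.

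The choice of background changed the count and its relation to other genes. With the stricter 99th percentile (level 9.16) 6.19% of the members were called, against 19.3% of all named genes. Without the 4 vomeronasal pseudogenes (level 7.64), a choice made after seeing the data, 35.1% of members were called against 43.6%. With a 95th percentile over olfactory receptors instead (level 7.18) the shares were 57.7% and 55%. The gap between members and other genes was therefore seen at the 3 higher levels and not at the lowest. With 1 array left out the level was taken again from the remaining arrays, at 7.98 without replicate 1, 7.94 without replicate 2 and 7.98 without replicate 3. The share of members called was then 15.5% without replicate 1 (33.4% of all named genes), 22.7% without replicate 2 (35.6%) and 15.5% without replicate 3 (34.1%), so in the case of replicate 2 both the arrays and the level changed. A fit to fewer arrays also has fewer degrees of freedom, so a call can be lost with little change in a gene's level. The share was 20.6% of members against 37.6% when all 3 arrays had to exceed the level, 20.6% against 36.8% with arrays centred on their medians, and 19.6% against 37.3% with each gene's highest probe set. It was 13.4% against 30.7% with probe sets of several genes added. Ordinary variances leave out genes with equal values on all arrays. With them 12 of the 50 members tested were called, against 40.9% of the 10765 genes tested.

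**Figure D1:**
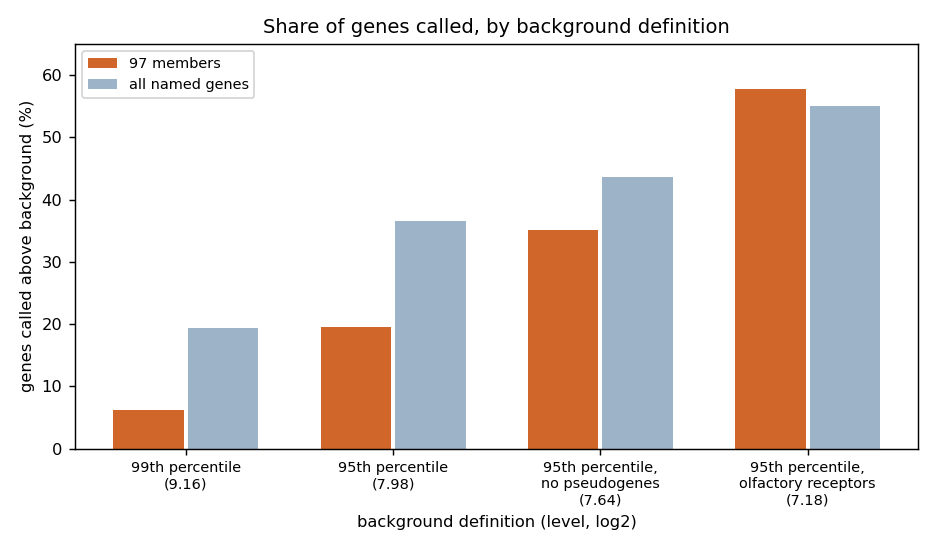
Bars give the share of genes called above background (%) among the 97 members and among all named genes, for 4 definitions of the background level, whose log2 level stands in parentheses. The share of members is the lower of the pair at levels 9.16, 7.98 and 7.64, and at 7.18 the shares are 57.7% and 55%.

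Exactly equal values on all 3 arrays were found for 47 members (48.5%), against 46% of all named genes. For these genes the SD is 0 and a level over 7.98 is in effect a call. They made up 7 of the 19 calls, and no p-value is given for them. Other called members, among them Dcn, Nid1, Lamb1, Fn1 and Bgn, were exactly equal on 2 of the 3 arrays. Their SD and p-values therefore rest on the 1 array that differs, and such p-values should be read with that limit.

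**Figure D2:**
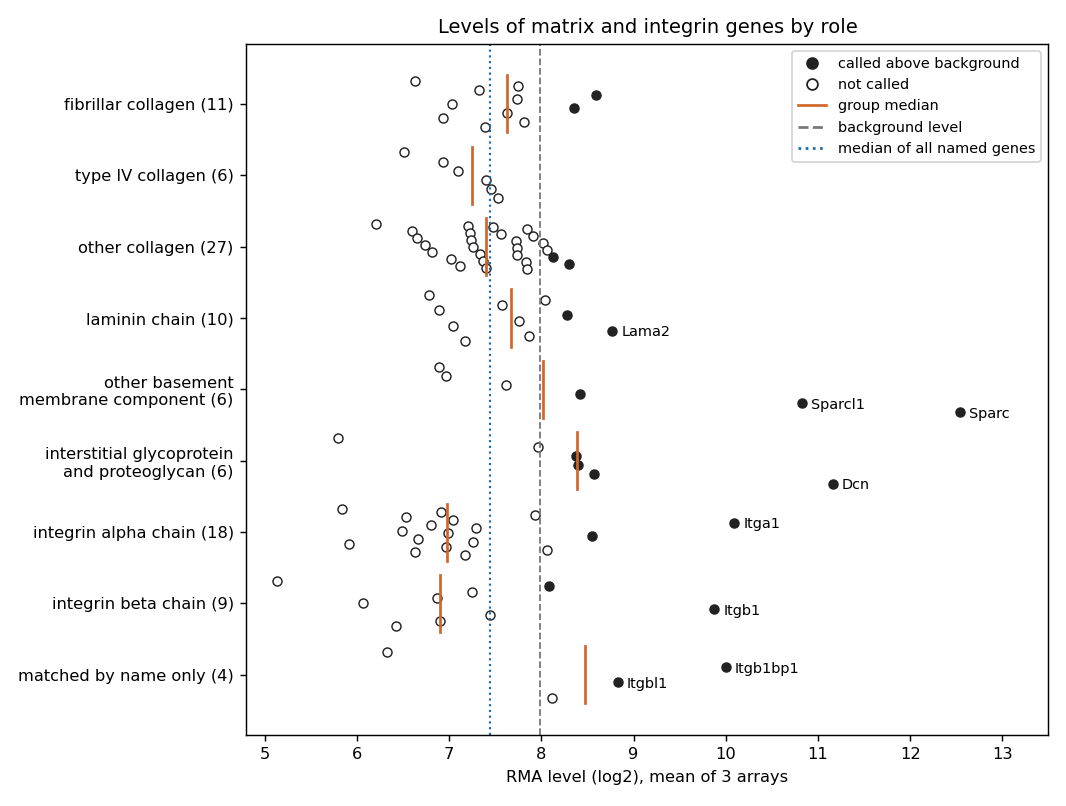
Each circle is 1 gene at its mean log2 level over 3 arrays, in rows by role with the number of genes in parentheses. Filled circles were called above the background level of 7.98 (dashed line), and the dotted line is the median of all named genes, 7.45. Most open circles lie between 6 and 8, and the genes more than 1 above the background are Sparc, Sparcl1, Dcn, Itga1, Itgb1 and Itgb1bp1.

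Nid1, Nid2, Hspg2, Agrn, Sparc and Sparcl1 were grouped here as other basement membrane components. Of these 6 genes 3 (50%) were called, against 36.6% of all named genes. Each call weighs heavily in a share of 6, and without Sparc and Sparcl1 only Nid1 was called. The median of the group was 8.02. Sparc encodes a secreted glycoprotein that binds collagen and calcium and is made by Sertoli and Leydig cells of the testis. Its values were 12.57, 12.47 and 12.58 in replicates 1, 2 and 3. All 3 arrays lay more than 4 above the background, with a mean difference of 4.56 ± 0.06 (SD, n = 3; adjusted p = 4.03e-05, limma). Its relative Sparcl1 stood at 10.82, 10.70 and 10.95, a mean of 10.83 ± 0.13 (adjusted p = 0.000457, limma). Nid1, the nidogen that links the laminin network to type IV collagen, was at 8.44, 8.38 and 8.44 (adjusted p = 0.0017, limma). It was not called without replicate 3 (adjusted p = 0.0574, limma). The remaining 3 were below the level on every array. Hspg2, which encodes perlecan, had a mean of 7.61, the proteoglycan gene Agrn 6.96 and the second nidogen gene Nid2 6.89.

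Laminins are trimers of an alpha, a beta and a gamma chain. Of 10 measured chains 2 (20%) were called, against 36.6% of all named genes, with a median of 7.67. Lama2, the alpha chain of muscle and peripheral nerve laminin, was at 8.81, 8.67 and 8.83, a mean of 8.77 ± 0.09 (n = 3; adjusted p = 0.00313, limma). Lamb1 was at 8.30, 8.24 and 8.30 (adjusted p = 0.00429, limma). Replicate 2 was the lowest array for both. The gamma chain gene Lamc1, whose product is part of most laminins, had values of 8.06, 7.94 and 8.13, on both sides of the level, and was not called (adjusted p = 0.48, limma). Lamb2 was at 7.86 and Lama1, the alpha chain of the early basement membrane, at 7.75, both with equal values on all arrays. Lamc3, a gamma chain described in testis, had a mean of 7.58. Lama4 averaged 7.04 and Lama5, the broadly used alpha chain of adult epithelia, 6.78.

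None of 13 laminin trimers with all chains measured had every chain called. Each of the 13 holds Lamc1 or Lamc3, neither of which was called, so this count follows from the gamma chains alone. The trimers with Lama1 or Lama2, Lamb1 or Lamb2, and Lamc1 came to 4 complete ones with the background that leaves out pseudogenes. With replicate 1 left out, or with replicate 3 left out, 0 of 10 chains were called. The differences changed little from those of all arrays, 0.79 for Lama2 and 0.30 for Lamb1. A fit to fewer arrays has fewer degrees of freedom, so these lost calls do not show that the levels depend on single arrays. Without replicate 1 the differences from background were 0.77 for Lama2 (adjusted p = 0.0531, limma) and 0.29 for Lamb1 (adjusted p = 0.0587, limma). Without replicate 3 they were 0.76 (adjusted p = 0.0708, limma) and 0.29 (adjusted p = 0.0894, limma).

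Type IV collagen forms the network of every basement membrane. None of its 6 chain genes was called by limma, against 36.6% of all named genes. None had an unadjusted p under 0.05, and none exceeded the level on all 3 arrays. The abundant chains of most tissues, Col4a1 and Col4a2, had means of 7.46 ± 0.0034 and 7.53, the latter with equal values. Both were called only with the olfactory receptor background. Col4a4 at 7.40 and Col4a3 at 6.93 had equal values on all arrays, and Col4a5 averaged 7.10. Col4a6 had values of 6.52, 6.55 and 6.45. A level below a 95th percentile of other genes does not show that these chains were not transcribed.

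Fibrillar collagens assemble into the fibres of interstitial matrix. Of 11 genes 2 (18.2%) were called, against 36.6% of all named genes, with a median of 7.63. They were Col1a1 at 8.59 and Col1a2 at 8.35, the chains of type I collagen, each with equal values on all 3 arrays. Type I was the 1 collagen assembly of 9 with every chain called. Col3a1, the partner of type I collagen in soft tissue, was at 7.63 on every array and not called. Col11a1 at 6.94 and Col5a2 at 6.63 were not called either. Col2a1, the cartilage collagen, had the widest spread here, with 7.71, 7.93 and 7.59, all below the level.

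The other 27 collagens included 2 calls (7.41%, against 36.6% of all named genes) and had a median of 7.40. Col9a3, a chain of cartilage type IX collagen, was at 8.25, 8.42 and 8.21, and replicate 2 was the highest (adjusted p = 0.0379, limma). Without replicate 1 it was not called (adjusted p = 0.181, limma), nor without replicate 3 (adjusted p = 0.19, limma). Its partners averaged 7.84 for Col9a2 and 6.65 for Col9a1. Col6a4 was at 8.12 on all arrays, and its neighbours on chromosome 9, Col6a5 at 7.84 and Col6a6 at 6.73, were not called. The main chains of type VI collagen, Col6a1, Col6a2 and Col6a3, had equal values of 7.83, 7.73 and 7.21. Col26a1, a collagen described in testis and ovary, was the member nearest above the level, with 7.97, 8.11 and 7.97, and was not called (adjusted p = 0.613, limma). Without replicate 2 its values were equal, and it was called because the level taken from the remaining arrays was 7.94, which they exceeded by 0.033. Col10a1 at 6.60 and Col19a1 at 6.21 were not called. The count of calls in this group was 1 without replicate 1, 4 without replicate 2 (at the level of 7.94) and 1 without replicate 3.

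Glycoproteins and proteoglycans of the interstitial matrix gave 4 calls in 6 genes (66.7%, against 36.6% of all named genes) and a median of 8.39. With 6 genes, each call weighs heavily in that share. Dcn encodes decorin, a small proteoglycan that binds collagen fibrils, and was at 11.17, 11.14 and 11.17 (adjusted p = 5.02e-06, limma). Its relative Lum, the lumican gene, was at 5.80 on all arrays. Dcn and Lum are next to each other on chromosome 10 among protein-coding genes of assembly GRCm38.p6. Bgn, the X-linked biglycan gene, was at 8.49, 8.49 and 8.73, with replicate 3 the highest (adjusted p = 0.0151, limma). It was not called without replicate 1 (adjusted p = 0.102, limma) or without replicate 2 (adjusted p = 0.131, limma). Fn1, the fibronectin gene, was at 8.40, 8.40 and 8.42 (adjusted p = 0.000165, limma). The elastic fibre gene Fbn2 was at 8.37 on every array. Eln, which encodes elastin, was at 7.96, the member nearest below the background level, and was called without replicate 2, when the level was 7.94.

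Integrin alpha chains gave 2 calls in 18 genes (11.1%), with a median of 6.98. Beta chains gave 2 in 9 (22.2%), with a median of 6.90. Of all named genes 36.6% were called. Itga1 encodes the alpha chain of a collagen and laminin receptor of smooth muscle and stromal cells. Its values were 10.08, 10.02 and 10.18, more than 2 above the background on each array (adjusted p = 0.000309, limma). Itgb1, the beta chain shared by most matrix receptors, was at 9.89, 9.81 and 9.92 (adjusted p = 0.000205, limma). Itgav, the alpha chain of receptors for fibronectin and vitronectin, was at 8.54 with equal values. Its partner Itgb5 was at 8.08, only 0.10 above the level and also equal on all arrays. Itga6, a laminin receptor chain used to enrich spermatogonial stem cells, was at 8.10, 7.97 and 8.10, on both sides of the level, and not called (adjusted p = 0.267, limma). Without replicate 2 its values were equal and it was called.

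The other integrin chains were below the level on every array. Among leukocyte integrins, Itgam was at 5.92, Itgax at 5.84, and the beta chains Itgb7 at 6.07 and Itgb2 at 6.42. The epithelial chain Itgb6 was at 5.14. Of 24 pairs of integrin chains, 3 had both chains called, namely Itga1 with Itgb1, Itgav with Itgb1, and Itgav with Itgb5. Itgam is also named with the ribosomal protein gene Rpl35 by 3 other probe sets, whose values lay between 9.37 and 10.05. With those added Itgam was called, but these probe sets cannot separate the genes.

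Symbols of 4 members begin like integrins although their products are not integrin chains. Of these 2 (50%) were called, against 36.6% of all named genes. Itgb1bp1 encodes a cytoplasmic protein that binds the tail of the integrin beta 1 chain, and was at 10.00 on all arrays. Itgbl1, a secreted protein with integrin-like repeats, was at 8.85, 8.79 and 8.85 (adjusted p = 0.000412, limma). Itgb3bp, which encodes a centromere protein also known as CENP-R, was at 8.07, 7.88 and 8.40 and was not called (adjusted p = 0.576, limma). Itgb1bp2, a muscle protein gene, averaged 6.33. Leaving all of these out, 17 of 93 genes (18.3%) were called.

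**Figure D3:**
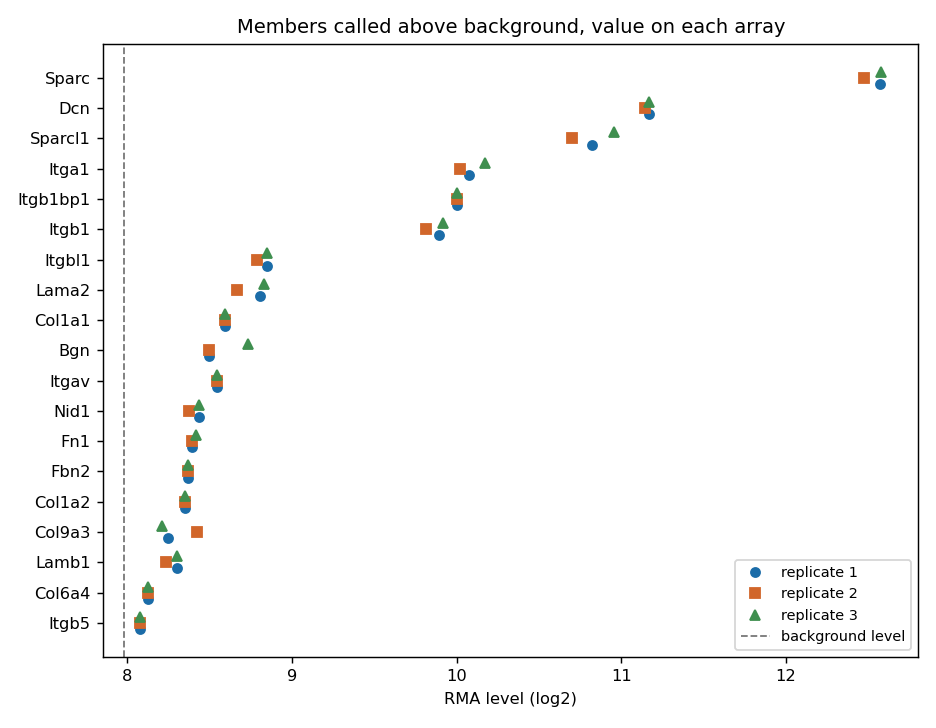
Log2 level of each of the 19 called members on each array (circle, square and triangle for replicates 1, 2 and 3), with the background level of 7.98 dashed. The 3 marks of a gene lie close together compared with its distance from the background for Sparc, Dcn, Sparcl1, Itga1, Itgb1bp1 and Itgb1, while Itgb5 and Col6a4 lie within 0.15 of it.

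The spread between arrays was small. Itgb3bp was the 1 member whose values spanned more than 0.5, against 0.863% of all named genes, with replicate 3 highest and replicate 2 lowest. Among the 50 members that were not equal on all arrays, the median SD was 0.05. Of the 12 called members with unequal values, 9 were lowest in replicate 2, against 58.7% of all called genes with unequal values. Of the 38 members not called with unequal values, 26 were highest in replicate 2, against 60.4% of such genes. The same order of arrays was thus common among all genes.

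**Figure D4:**
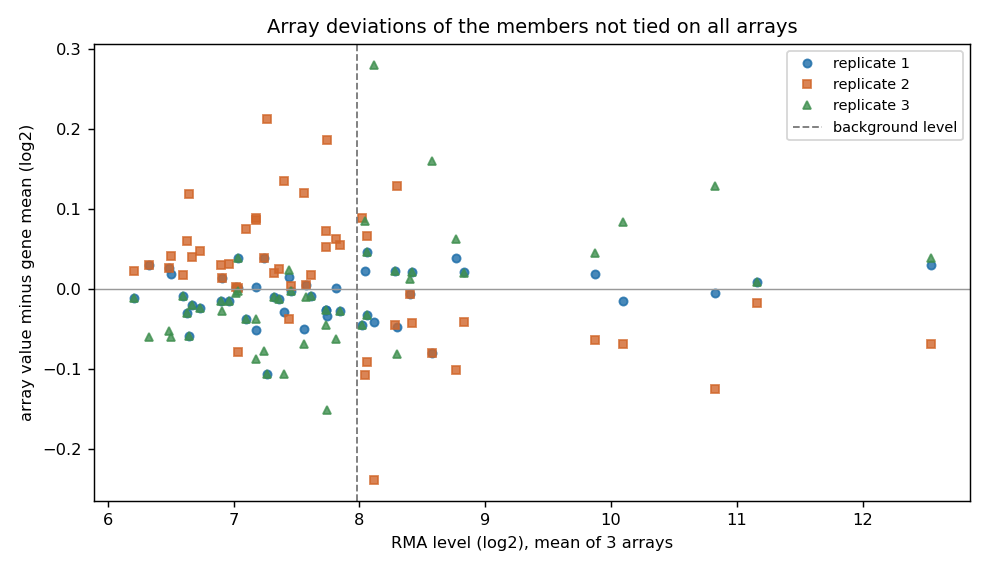
Each member that was not equal on all arrays is plotted by its mean log2 level (horizontal) and by the difference of each array from that mean (vertical, log2). Squares of replicate 2 lie mostly above 0 left of the background level of 7.98 and mostly below 0 right of it, and the widest spread belongs to Itgb3bp at a mean of 8.12.

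Among protein-coding genes of GRCm38.p6, Itga2, the alpha chain of a second collagen receptor, lies next to Itga1 on chromosome 13. Itga2 was at 7.29 on all arrays and was not called. Promoter windows from RefSeq were found for 67 of the 97 members.

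The 150 bases before the annotated start are shown for the neighbours Itga1, which was called, and Itga2, which was not, and for the called basement membrane genes Lamb1 and Nid1, in GRCm38.p6 and 5′ to 3′ on the gene's strand. Capitals mark the GC box GGGCGG and the CCAAT box on either strand. The windows are chr13:115101965-115102114 on the minus strand for Itga1, chr13:114932101-114932250 on the minus strand for Itga2, chr12:31265143-31265292 on the plus strand for Lamb1 and chr13:13437452-13437601 on the plus strand for Nid1.
Itga1: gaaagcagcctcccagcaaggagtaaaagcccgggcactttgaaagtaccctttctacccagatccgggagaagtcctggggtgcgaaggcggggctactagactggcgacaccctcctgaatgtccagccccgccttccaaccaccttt
Itga2: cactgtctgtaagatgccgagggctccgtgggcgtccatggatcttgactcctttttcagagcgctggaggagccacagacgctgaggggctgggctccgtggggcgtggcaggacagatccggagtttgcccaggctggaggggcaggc
Lamb1: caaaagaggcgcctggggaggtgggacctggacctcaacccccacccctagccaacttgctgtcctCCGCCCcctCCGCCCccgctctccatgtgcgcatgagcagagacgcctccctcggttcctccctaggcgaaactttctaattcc
Nid1: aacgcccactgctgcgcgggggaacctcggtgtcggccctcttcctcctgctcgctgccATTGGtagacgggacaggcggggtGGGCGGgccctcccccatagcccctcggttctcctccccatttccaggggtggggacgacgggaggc
Neither motif, nor the TATA box TATAAA, was found in the windows of Itga1 and Itga2. Lamb1 held the GC box 2 times on the reverse strand, and Nid1 held 1 GC box and 1 CCAAT box. Of all RefSeq windows of this length, 28.6% held GGGCGG, 24.5% CCAAT and 7.57% TATAAA. Among the 13 called members with a window, 6 held GGGCGG, 2 CCAAT and 0 TATAAA. Among the 54 members with a window that were not called, 25, 9 and 4 did. Members are counted as genes with a match in any of their windows, while the shares above are per window. A match is only a string of letters and does not show that a factor binds there.

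The enzymes and proteins that act on matrix were read from 5 further lists. Of 23 measured genes for collagen synthesis and cross-linking 6 (26.1%) were called, against 36.6% of all named genes, with a list median of 7.41. The prolyl hydroxylase subunit gene P4hb averaged 9.89, Pcolce, an enhancer of procollagen cleavage, 9.52, and the lysyl hydroxylase gene Plod2 8.82, while Colgalt2 was at 5.56. Without replicate 3 only 2 of these 23 were called. Serpinh1, the collagen chaperone gene, at 7.12 and the lysyl oxidase gene Lox at 6.05 were not called. They were chosen after their values were seen.

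Of 22 metalloproteinase and inhibitor genes 3 (13.6%) were called, against 36.6% of all named genes, with a median of 6.76. All of them inhibit matrix breakdown: Timp2 was at 9.72, Timp3 averaged 8.46 and Reck was at 8.28, and no Mmp gene was called by limma, had an unadjusted p under 0.05 or exceeded the level on all arrays. Mmp8 was at 4.54, but Mmp14 was at 7.91 on every array, just below the level. Mmp14 lay above the level of 7.64 without vomeronasal pseudogenes and that of 7.18 over olfactory receptors. Mmp2, at a mean of 7.50, lay above the latter only. The list had 4 calls at the level of 7.64 and 5 at that of 7.18. The absence of Mmp calls therefore depends on the background chosen. Of 17 other matrix receptors 5 (29.4%) were called. They included the sarcoglycan gene Sgcb at 9.74, the laminin-binding ribosomal protein gene Rpsa at 9.52 and the dystroglycan gene Dag1 at 8.46. Cd44 was at 6.68 and not called. Of 38 other matrix glycoproteins and proteoglycans 6 (15.8%) were called, with a median of 7.30. Among them were Comp at 9.02, Ogn at 8.63 and Ecm1 at 8.50, while Thbs2 was at 6.08.

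Cytoplasmic partners of integrins gave 12 calls in 25 genes (48%, against 36.6% of all named genes), with a median of 7.89. The small GTPase genes Rap1b and Rap1a, which switch integrins on, averaged 10.52 and 10.23, and Ilk, the integrin-linked kinase gene, 9.32. The kindlin gene Fermt1 was at 4.93. Of the other 2 kindlins, Fermt2 was called at 8.39 and the blood cell form Fermt3, at a mean of 6.94, was not. Both were chosen after their values were seen. Many of these proteins act outside adhesion, and Rap1 proteins work in most cells.

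Markers of cell types were counted in lists, beside the 36.6% of all named genes that were called. All 10 haploid germ cell markers were called, with array medians from 12.25 to 12.30, and all 10 spermatocyte markers. Of 10 markers of spermatogonia, the germ cells on the basement membrane, 4 (40%) were called, with a median of 7.71. Markers of cells that could make matrix were counted too. A share near that of all named genes does not show that a cell type was present. Of 10 peritubular myoid and smooth muscle markers 5 (50%) were called, with Actg2 at 11.52, Myl9 at a mean of 10.11 and Acta2 at 9.37. Cald1, Mylk, Tagln, Cnn1 and Des were below the level. The median of this list was 8.05 on each array. Of 15 Sertoli markers 10 (66.7%) were called, with array medians of 8.47. Sox9, Inhbb, Dhh, Krt18 and Amh were below the level, and Gata4 was called at 7.997, equal on all arrays and barely above it. Of 8 Leydig markers 7 (87.5%) were called, with array medians from 10.18 to 10.26, and Nr5a1 was below the level. Fibroblast and stromal markers gave 3 calls in 8 (37.5%) and macrophage and blood markers 4 in 10 (40%), both near the share of all named genes. In the latter list, Itgam is a member here and was not called.

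None of 10 endothelial markers was called by limma, had an unadjusted p under 0.05 or exceeded the level on all arrays, and their levels ranged from 6.35 to 7.45. The same held for 10 markers of other tissues. Marker counts also changed with the background. With olfactory receptors 4 endothelial and 4 other tissue markers were called. Myoid and smooth muscle calls were 2 at the 99th percentile and 9 with olfactory receptors, and Sertoli calls 5 and 12. Which cell type carried the transcripts of Sparc, Dcn, Itga1 or Itgb1 was not tested. In RNA of a whole suspension, fewer cells of a type and less RNA per cell cannot be told apart.

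**Figure D5:**
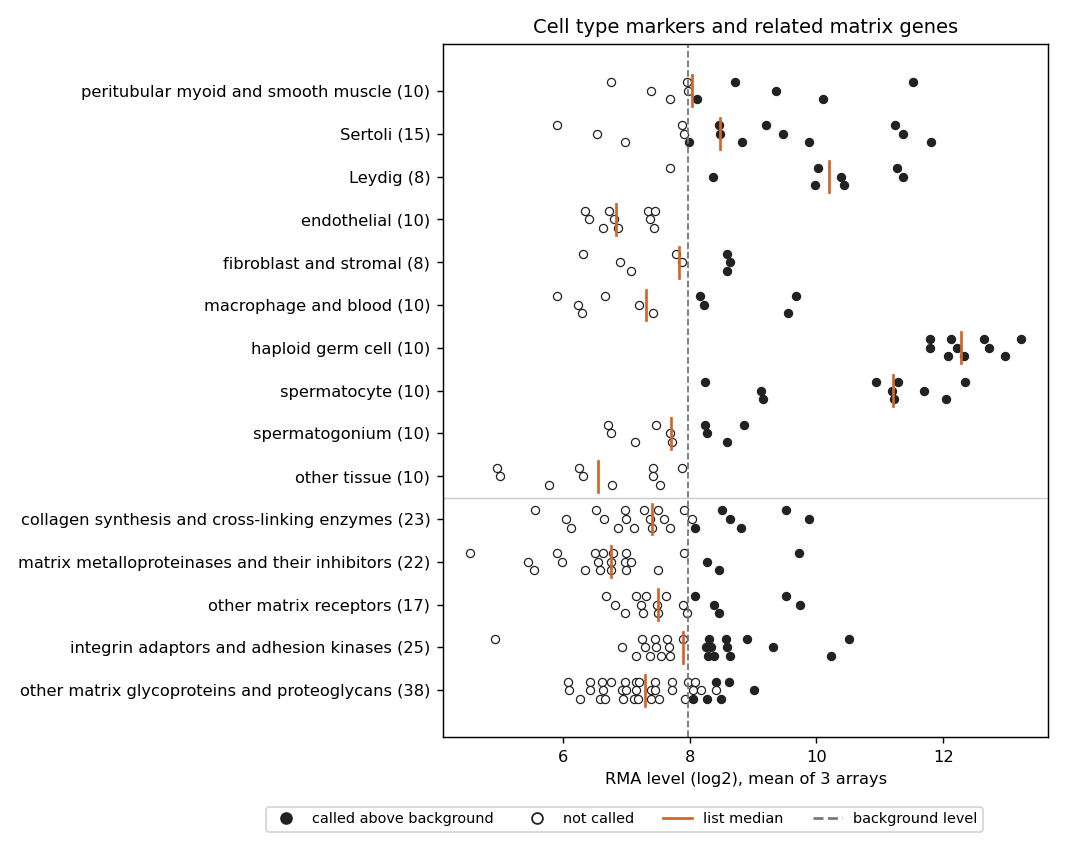
Mean log2 level over 3 arrays for each gene of 10 cell type marker lists (top) and 5 lists of related matrix genes (bottom), with measured genes per list in parentheses. Filled circles were called above the background level of 7.98 (dashed), and orange lines are list medians. All haploid germ cell and spermatocyte markers are filled, no endothelial marker is, and the related matrix lists have medians between 6.76 and 7.89.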

How the data were processed

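Levels were the log2 probe set values that the authors deposited for 3 arrays, made with Affymetrix Power Tools by Robust Multichip Average on mm9-based annotation, per the series' design text (software version not given in the sources used here). Background correction, probe effects within a probe set and the normalization between arrays were thus handled before deposit. Differences in binding between probes of different genes remain. Array medians were 7.17, 7.20 and 7.17. Arrays have no read depth, and their number limits the precision.

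The platform annotation named 1 gene for 21789 of 35556 probe sets, and 21698 of these symbols matched the GRCm38.p6 gene table by Entrez identifier. Several probe sets of a gene were combined by their median. Calls used limma 3.58.1 in R 4.3.3, an intercept model with empirical Bayes variances, on all 19938 genes, and the step was tested on simulated data. The prior had 0.267 degrees of freedom. With 1 group there was no comparison of conditions.

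Members and lists were chosen with earlier results of these data known. Named were, per role group, up to 6 called genes and the lowest 2, members spanning over 0.5, the nearest on each side of the background, name-only matches and known tubule basement membrane chains; in related lists, the highest 3 and the lowest. Other genes named, such as the partner chains of a named gene, were chosen after their values were seen. Alternatives changed the background, call rule, probe sets, scaling, variances and arrays.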

Additional observations from a re-analysis of the deposited data

How the results depend on the processing

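Under 11 alternatives the 5 members Sparc, Dcn, Sparcl1, Itga1 and Itgb1 were called each time, and 40 members never were. The count of 19 members became 6 at the 99th percentile background, 56 with olfactory receptors, 34 without vomeronasal pseudogenes and 12 with ordinary variances, which leave tied genes untested. It was 15 to 22 with 1 replicate left out, where 22 belongs to replicate 2, without which the level was 7.94.

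At the 99th percentile the counts fell to 0 for fibrillar collagens, other collagens, laminins and collagen assemblies, to 1 for interstitial glycoproteins, alpha chains, beta chains, name-only matches and integrin pairs. In the related lists they were 2 for synthesis enzymes, 1 for metalloproteinases, 2 for receptors, 3 for adaptors and 0 for other glycoproteins. With olfactory receptors they were 8 fibrillar, 3 type IV and 18 other collagens, 6 laminins, 6 alpha chains, 5 laminin trimers, 3 collagen assemblies and 8 integrin pairs, and in the related lists 14, 5, 13, 21 and 19 in the same order. Without pseudogenes (chosen after seeing the data) they were 10 other collagens, 5 laminins, 4 alpha chains, 4 laminin trimers, 5 integrin pairs and 13 other glycoproteins.

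With probe sets of several genes added, which raised the background to 8.37, they were 1 fibrillar and 0 other collagens, 1 laminin, 1 beta chain, 0 collagen assemblies, 3 receptors and 7 adaptors. With ordinary variances they were 0 fibrillar and 1 other collagen, 1 alpha chain, 1 beta chain, 1 name-only match, 0 collagen assemblies, 1 integrin pair, 1 metalloproteinase list gene, 2 receptors, 6 adaptors and 2 other glycoproteins. Asking for all arrays above the level gave 10 other glycoproteins. With 1 replicate left out, the counts ranged from 1 to 4 for other collagens, 0 to 2 for laminins, 2 to 7 for synthesis enzymes and 0 to 1 for members spanning over 0.5. Taking the highest probe set or centring the arrays moved none of these counts by over 1.5 times.

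Called genes fell below the stricter background of 9.16, with differences of -0.59 for Bgn, -0.57 for Col1a1, -0.81 for Col1a2, -1.04 for Col6a4, -0.87 for Col9a3, -0.79 for Fbn2, -0.76 for Fn1, -0.62 for Itgav, -1.08 for Itgb5, -0.33 for Itgbl1, -0.39 for Lama2, -0.88 for Lamb1 and -0.74 for Nid1. With the background of 8.37 they were -0.016 for Col1a2, -0.24 for Col6a4, -0.072 for Col9a3, -0.29 for Itgb5 and -0.087 for Lamb1, while Bgn at 0.21 (adjusted p = 0.153, limma) and Nid1 at 0.050 (adjusted p = 0.181, limma) stayed above it and lost their calls. These changes follow from the raised level. No paired analysis was possible because there was 1 group.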

Other observations

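Some different genes had exactly the same value. Col6a1 and 1 of the 2 probe sets of Col6a5 were both at 7.83 on all 3 arrays, and Col9a1 and Col10a1 were both at 6.59 in replicates 1 and 3 and at 6.77 and 6.61 in replicate 2. Of all 35556 probe sets, 44.5% shared their value in replicate 1 with another probe set.

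Members with several probe sets did not always agree. The 2 probe sets of Itgad were at 7.36 and 5.70 on every array, and those of Col6a6 averaged 7.23 and 6.24. All 4 lay below the background level of 7.98.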
